A study of Homo sapiens with 12 samples.

Results

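The genes described here are 8 receptor tyrosine kinases (AXL, MERTK, TYRO3, MET, DDR1, DDR2, FGFR1 and FGFR4) and 2 of their ligands (GAS6 and FGF2). They were found by symbol and are 10 of the 60234 genes in the count table. All 10 could be tested. The symbol DDR1 also stands on 6 further rows of the table, which hold 0 counts in every library, so the 1 row with counts (ENSG00000204580) was used.

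The cells were of the established human line MDA-MB-231, from a triple-negative breast cancer, in 2 populations. Fast cells had been captured by the trajectory along which they moved, and parental cells are the line before capture, with no treatment named in the labels. The 12 total RNA libraries divide into 2 batches, each with 3 of fast and 3 of parental cells, which the submitters describe as technical replicates. The submitters also speak of 2 biological replicates, without saying whether these are the batches or the populations. The p-values therefore measure spread that may be technical, and the labels do not say whether the fast population is 1 clone. The question was how captured cells differ from the line they came from, within each batch.

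Receptor tyrosine kinases are single-pass membrane proteins that bind a ligand outside the cell and phosphorylate tyrosines inside it. AXL, MERTK and TYRO3 form the TAM family. The vitamin K-dependent protein GAS6 bridges them to phosphatidylserine on membranes, and the related protein S does so for MERTK and TYRO3. MET binds hepatocyte growth factor (HGF) and drives scattering and invasion, the discoidin domain receptors DDR1 and DDR2 bind collagen, and the FGF receptors bind fibroblast growth factors together with heparan sulfate. AXL and MET are known for their part in invasion of breast cancer cells with mesenchymal features, the state to which this line belongs.

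The stretches upstream of 4 members are shown, because FGFR4, MERTK and FGF2 changed most and AXL stood highest. They come from RefSeq (GRCh38.p14, plus strand, 5′ to 3′) at chr5:177086665-177086885, chr2:111898357-111898478, chr4:122826581-122826707 and chr19:41218973-41219202 in the order printed, each ending before the gene's first annotated exon base. Capitals mark GC boxes, the letters GGGCGG on either strand.
FGFR4: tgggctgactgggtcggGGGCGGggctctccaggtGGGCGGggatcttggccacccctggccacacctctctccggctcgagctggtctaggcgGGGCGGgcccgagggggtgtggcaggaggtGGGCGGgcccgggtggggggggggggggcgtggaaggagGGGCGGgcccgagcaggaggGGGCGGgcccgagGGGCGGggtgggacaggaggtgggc
MERTK: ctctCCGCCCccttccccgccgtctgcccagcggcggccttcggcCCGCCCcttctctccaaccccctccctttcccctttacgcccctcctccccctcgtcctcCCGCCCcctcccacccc
FGF2: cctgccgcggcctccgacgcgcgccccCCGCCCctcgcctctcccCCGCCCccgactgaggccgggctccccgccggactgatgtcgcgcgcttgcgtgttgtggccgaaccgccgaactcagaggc
AXL: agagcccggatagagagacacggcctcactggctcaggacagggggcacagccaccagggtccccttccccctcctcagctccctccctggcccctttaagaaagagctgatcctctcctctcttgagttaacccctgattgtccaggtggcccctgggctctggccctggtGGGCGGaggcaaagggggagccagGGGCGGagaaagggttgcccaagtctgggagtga
Over the whole 250 bases before these RefSeq starts, GC boxes numbered 7 for FGFR4, 4 for MERTK, 3 for FGF2 and 2 for AXL, and 42.6% of all 35116 promoters hold at least 1. Neither the AP-1 letters TGANTCA (in 6.57% of promoters) nor the TEAD letters CATTCC (in 11.9%) were found on either strand in these 4 windows. A further RefSeq start of FGFR4 and one of AXL, not printed, had no GC box, and that of AXL had 1 TEAD match. Among members not printed, windows of TYRO3, GAS6, MET and DDR1 held GC boxes and those of DDR2 did not. TYRO3 and DDR1 each had 1 AP-1 match in a window, and DDR1 also had 1 TEAD match. Any tie between these letters and the changes was not tested.

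Over both batches fast cells had 6 of the 10 members higher and 3 lower, and FGFR1 did not pass the threshold (edgeR's quasi-likelihood test, adjusted p under 0.05). The background is high: 63.4% of the 22668 genes tested were called in this comparison, 31.9% higher and 31.5% lower. The median absolute log2 fold change was 0.44 over the members, 0.32 over all genes tested and 0.28 over the 16190 genes at 1 CPM or more. The members were chosen with earlier results of these data known, so this excess is not an independent result. In 4 members, FGF2, FGFR4, MERTK and MET, no fast library overlapped any parental library, against 38.4% of all genes tested. Changes of at least 2-fold were called in 2 members, FGF2 and FGFR4, against 10.9% of all genes.

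**Figure D1:**
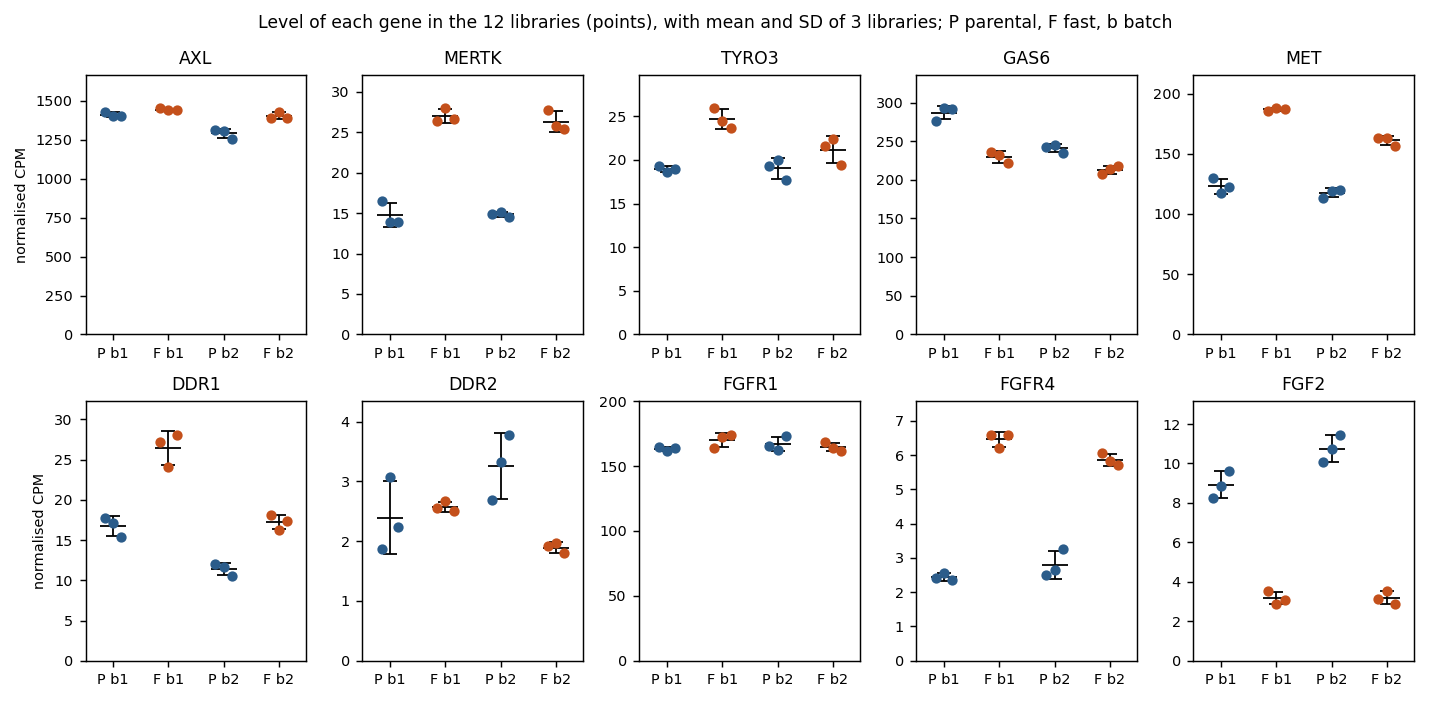
TMM-normalised counts scaled to a common library total (CPM) of each gene in the 12 libraries, parental in blue and fast in orange, with the mean and SD of 3 libraries per population and batch. FGF2 lay between 8.26 and 11.5 CPM in parental and between 2.88 and 3.54 CPM in fast libraries, while FGFR1 lay between 162 and 174 CPM in all 12.

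Levels of different genes are compared as CPM per kb of exon. AXL stood far above the rest, at 276 CPM per kb in fast and 262 in parental cells, followed by its ligand GAS6 at 36.9 and 44.0. MET followed at 24.7 in fast and 17.1 in parental cells, and then FGFR1 at 12.1 and 11.9. MERTK stood at 5.66 in fast and 3.15 in parental cells. From AXL down to DDR1 the libraries of neighbours in this order did not overlap in either population. DDR1 (2.40 in fast, 1.54 in parental) and TYRO3 (2.10 and 1.73) did overlap with each other in both populations, and TYRO3 overlapped FGF2 in parental cells. FGFR4 and FGF2 exchanged places, with FGFR4 at 1.28 and FGF2 at 0.470 CPM per kb in fast cells, against 0.542 and 1.45 in parental cells. DDR2 was the lowest member, at 0.208 in fast and 0.264 in parental cells. This order depends on the exon lengths used. In plain CPM, parental cells had FGFR1 (165) above MET (120), TYRO3 (19.0) above MERTK (14.8) and DDR2 (2.83) above FGFR4 (2.62). In fast cells the plain CPM of MET (157 to 188) and FGFR1 (162 to 174) overlapped.

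GAS6 (ENSG00000183087), the TAM ligand, was lower in fast cells. In batch 1 the fast libraries held 236, 232 and 222 CPM and the parental libraries 277, 292 and 292 CPM. In batch 2 the fast libraries held 207, 215 and 217 CPM and the parental libraries 243, 245 and 235 CPM. The groups did not overlap within either batch, but batch 1 fast and batch 2 parental libraries lay close together, so the populations overlapped when batches were pooled. Over both batches the log2 fold change was -0.25 ± 0.03 SE (edgeR adjusted p = 1.61e-09), a 1.19-fold difference. It was -0.32 ± 0.03 SE in batch 1 and -0.18 ± 0.03 SE in batch 2 (edgeR adjusted p = 1.39e-11 and 8.26e-06). The difference between batches, 0.14 ± 0.05 SE, was not called (edgeR adjusted p = 0.0581). An antisense transcript, GAS6-AS1, shares 7.01% of the exon bases of GAS6. Over both batches it had the same log2 fold change, -0.25 ± 0.04 SE, with a mean of 38.7 CPM in fast against 46.0 CPM in parental cells. The sources used here do not say whether counting used strand, so reads of such partners cannot be told apart. GAS6-AS1 and the other overlapping partners were picked after their values were seen.

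AXL (ENSG00000167601), the most abundant member, moved little. Its levels were 1451, 1443 and 1438 CPM in fast and 1431, 1399 and 1403 CPM in parental libraries of batch 1. In batch 2 they were 1393, 1430 and 1388 CPM in fast and 1312, 1306 and 1258 CPM in parental libraries. All 3 fast libraries were above all 3 parental libraries in each batch, by a narrow margin in batch 1. The log2 fold change was 0.08 ± 0.02 SE over both batches, a 1.05-fold difference (edgeR adjusted p = 0.00457). Within batch 1 it was 0.03 ± 0.03 SE and not called (adjusted p = 0.331), and within batch 2 it was 0.12 ± 0.03 SE (adjusted p = 0.000295). The difference between batches, 0.09 ± 0.04 SE, was not called with the default filter and all libraries (edgeR adjusted p = 0.234). An opposite-strand gene, AC011510.1, shares 1.3% of the exon bases of AXL. The call over both batches was lost without a batch term (adjusted p = 0.0709) and when each set of 3 libraries was summed into 1 (0.117).

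MERTK (ENSG00000153208), the TAM kinase best known for the uptake of dead cells by phagocytes, was 1.8-fold higher in fast cells. Fast libraries held 26.3, 27.9 and 26.6 CPM in batch 1 and 27.8, 25.8 and 25.3 CPM in batch 2. Parental libraries held 16.4, 13.9 and 13.9 CPM in batch 1 and 14.9, 15.1 and 14.5 CPM in batch 2. The separation was complete and of like size in both batches, with log2 fold changes of 0.87 ± 0.06 SE and 0.83 ± 0.06 SE (edgeR adjusted p = 5.6e-16 and 2.13e-15). TYRO3 (ENSG00000092445), the TAM receptor known mainly from the nervous system, rose less, from 19.0 ± 0.797 (SD, n = 6) to 22.9 ± 2.29 CPM (log2 fold change 0.27 ± 0.05 SE, edgeR adjusted p = 1.53e-05). The populations did not overlap for TYRO3 in batch 1 (log2 fold change 0.39 ± 0.06 SE). They overlapped in batch 2, where it was 0.15 ± 0.06 SE (edgeR adjusted p = 0.031), and that call was lost without fast replicate 1 or 2 or parental replicate 3 of batch 2 (0.0554 to 0.0983). For TYRO3 the difference between batches, -0.23 ± 0.09 SE, was not called (edgeR adjusted p = 0.122). Of the 50-base words of TYRO3 transcripts, 4.22% also occur in other genes, most often in its pseudogene TYRO3P, which had 125 counts over all 12 libraries.

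AXL made up 97.3% ± 0.101 (SD, n = 6) of the summed TAM counts per kb in fast and 98.2% ± 0.113 in parental cells. MERTK made up 1.99% ± 0.0805 and 1.18% ± 0.0862. The AXL share differed by -0.901 percentage points, lower in all 6 fast than in all 6 parental libraries (two-sided exact permutation test within batches over 400 arrangements, p = 0.005, the smallest it can give, and 0.0075 adjusted over the 3 shares tested). AXL itself moved little, so this difference largely restates the rise of MERTK. Each of the 3 shares uses the same counts as the tests of single genes and is not a separate result. Within a batch alone, 3 libraries against 3 cannot give a p below 0.10, so no within-batch test of a share is printed. AXL shares averaged 97.2% and 98.3% in fast and parental cells of batch 1, and 97.3% and 98.1% in batch 2.

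MET (ENSG00000105976), the HGF receptor, was 1.44-fold higher in fast cells. Its levels were 186, 188 and 187 CPM in fast and 129, 117 and 123 CPM in parental libraries of batch 1. In batch 2 they were 163, 163 and 157 CPM in fast and 113, 119 and 120 CPM in parental libraries. No libraries overlapped, and the log2 fold changes were 0.60 ± 0.04 SE in batch 1 and 0.45 ± 0.04 SE in batch 2 (edgeR adjusted p = 3.67e-19 and 3.57e-15). With 6727 to 12586 counts per library, MET was measured to a coefficient of variation of 0.533% to 5% within a population and batch. Its ligand HGF had 4 counts over all 12 libraries and was not tested.

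**Figure D2:**
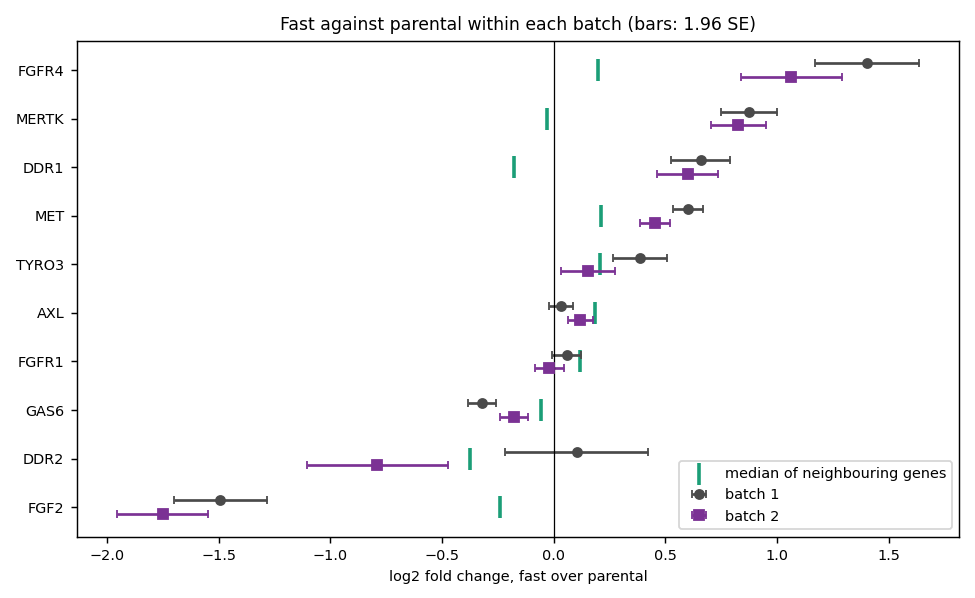
Log2 fold change of fast over parental cells for each gene in batch 1 (grey circles) and batch 2 (purple squares), with bars for the 95% interval, and the median log2 fold change of the 20 nearest genes on the chromosome at 1 CPM or more (green ticks; 17 genes for GAS6). FGFR4, MERTK, DDR1 and FGF2 lay far from their neighbours' medians, whereas over both batches TYRO3 (0.27 against 0.21) lay near its own. DDR2 lay near its own only over both batches (-0.35 against -0.37), with 0.10 in batch 1 and -0.79 in batch 2.

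DDR1, the collagen receptor of epithelial cells, was 1.55-fold higher in fast cells. Fast libraries held 27.2, 24.1 and 28.1 CPM in batch 1 and 18.1, 16.3 and 17.3 CPM in batch 2. Parental libraries held 17.7, 17.2 and 15.4 CPM in batch 1 and 12.0, 11.7 and 10.5 CPM in batch 2. Both populations stood lower in batch 2, at 0.651 of the batch 1 mean in fast and 0.679 in parental cells, so that batch 2 fast libraries met batch 1 parental libraries. The fold change itself was similar in both batches (log2 0.66 ± 0.07 SE and 0.60 ± 0.07 SE, edgeR adjusted p = 2.29e-11 and 7.51e-10). The 95% interval of the difference between batches ran from -0.25 to 0.13.

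DDR2 (ENSG00000162733), the collagen receptor of mesenchymal cells, was the only member whose effect differed between batches with all 12 libraries and edgeR's default filter. In batch 1 fast libraries held 2.55, 2.67 and 2.51 CPM and parental libraries 1.88, 3.07 and 2.23 CPM. In batch 2 fast libraries held 1.92, 1.97 and 1.80 CPM and parental libraries 2.68, 3.33 and 3.78 CPM. The groups overlapped in batch 1 (log2 fold change 0.10 ± 0.16 SE, edgeR adjusted p = 0.625) and did not in batch 2 (-0.79 ± 0.16 SE, adjusted p = 4.23e-05). The difference of -0.89 ± 0.23 SE passed the test (edgeR adjusted p = 0.0121), as it did for 5.4% of all genes tested (3.65% in the same direction, smaller in batch 2), but not without parental batch 2 replicate 3 (0.0731). Over both batches DDR2 had a log2 fold change of -0.35 ± 0.15 SE (edgeR adjusted p = 0.0416). That call was lost with DESeq2 (0.0582), without a batch term (0.0867), with summed libraries (0.136), and when parental batch 1 replicate 2 or a single library from batch 2 was left out (0.055 to 0.123). DDR2 had 107 to 270 counts per library, the fewest among the members.

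DDR1 made up 91.9% ± 0.814 (SD, n = 6) of the DDR counts per kb in fast and 84.8% ± 5.60 in parental cells, a difference of 7.10 percentage points (two-sided exact permutation test within batches, p = 0.01, adjusted over the 3 shares 0.01). In batch 1 the mean shares were 92.3% in fast and 89.2% in parental cells, and in batch 2 they were 91.4% and 80.4%. The highest parental library, at 91.7%, lay within the fast range of 90.7% to 92.9%. With the length of the longest transcript of each gene in place of all its exons, the difference was 3.95 percentage points (p = 0.01 in the same exact permutation test).

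FGF2 (ENSG00000138685), the basic fibroblast growth factor, fell most among the members. Parental libraries held 8.26, 8.87 and 9.64 CPM in batch 1 and 10.1, 10.7 and 11.5 CPM in batch 2. Fast libraries held 3.52, 2.89 and 3.10 CPM in batch 1 and 3.15, 3.54 and 2.88 CPM in batch 2. The highest fast library was far below the lowest parental library, and the fold difference was 3.09 (log2 fold change -1.63 ± 0.08 SE, edgeR adjusted p = 6.65e-19). The within-batch values were -1.49 ± 0.11 SE and -1.75 ± 0.10 SE. NUDT6, a gene on the opposite strand that shares 11.9% of the exon bases of FGF2, fell with it, from 16.9 ± 1.08 to 6.61 ± 0.203 CPM (SD, n = 6, log2 fold change -1.35 ± 0.06 SE, edgeR adjusted p = 6.58e-21). The 20 nearest genes of FGF2, NUDT6 among them, had a median log2 fold change of -0.24, with 17 below 0.

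FGFR1 (ENSG00000077782), the FGF receptor found in most mesenchymal cells, was level across the study. Fast libraries ran from 162 through a median of 166 to 174 CPM, and parental libraries from 162 through 164 to 173 CPM. The populations overlapped in both batches, with log2 fold changes of 0.06 ± 0.03 SE in batch 1 and -0.02 ± 0.03 SE in batch 2 (edgeR adjusted p = 0.136 and 0.642). Over both batches it was 0.02 ± 0.03 SE (edgeR adjusted p = 0.551), and the 95% interval ran from -0.03 to 0.07. FGFR1 shares 1.13% of its exon bases with the opposite-strand gene AC087623.1, which averaged 6.86 CPM in fast against 6.62 in parental cells. It shares 0.997% with LETM2 on the opposite strand, whose mean was 17.1 CPM in fast and 9.99 in parental libraries, a log2 fold change of 0.78 ± 0.05 SE (edgeR adjusted p = 7.2e-15).

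FGFR4 (ENSG00000160867), known as the receptor for FGF19 in liver and as a driver in some carcinomas, rose 2.34-fold, the largest rise among the members. Fast libraries held 6.58, 6.20 and 6.59 CPM in batch 1 and 6.06, 5.83 and 5.72 CPM in batch 2. Parental libraries held 2.40, 2.57 and 2.34 CPM in batch 1 and 2.50, 2.64 and 3.26 CPM in batch 2. No libraries overlapped, and the log2 fold change was 1.23 ± 0.09 SE (edgeR adjusted p = 2.67e-14), with 1.4 ± 0.12 SE in batch 1 and 1.06 ± 0.12 SE in batch 2. The 20 nearest genes had a median of 0.20. FGFR4 was measured on 137 to 455 counts per library.

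Among the 4 FGF receptors, FGFR1 made up 88.4% ± 0.399 (SD, n = 6) of the counts per kb in fast and 93.8% ± 0.601 in parental cells. FGFR4 made up 9.32% ± 0.437 and 4.25% ± 0.420, FGFR3 2.3% ± 0.388 and 1.92% ± 0.428, and FGFR2 had 16 counts over all 12 libraries. The FGFR1 share was 5.43 percentage points apart, and all 6 fast libraries were below all 6 parental libraries (two-sided exact permutation test within batches, p = 0.005, adjusted 0.0075). FGFR1 itself was level, so this difference largely restates the rise of FGFR4. In batch 1 the FGFR1 share was 88.3% in fast and 94.3% in parental cells, and in batch 2 it was 88.5% and 93.3%. In plain counts, not divided by length, the FGFR1 share differed by -2.13 percentage points (p = 0.005 in the same exact permutation test).

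**Figure D3:**
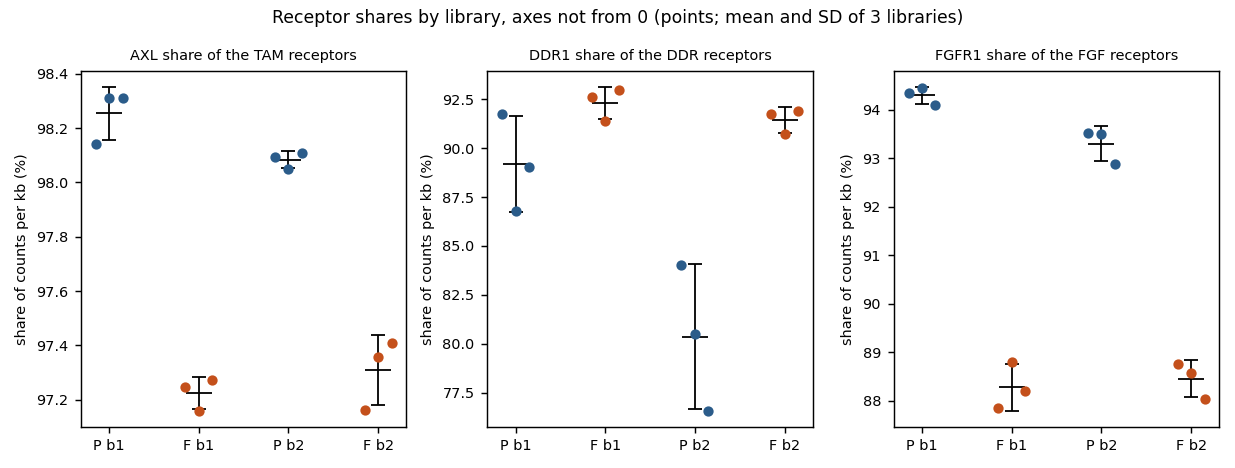
Share of counts per kb taken by AXL among the TAM receptors, DDR1 among the DDR receptors and FGFR1 among the FGF receptors, by library, with the mean and SD of 3 libraries (axes do not start at 0). AXL and FGFR1 shares were lower in all 6 fast libraries, and the DDR1 share was most spread in parental libraries, from 76.6% to 91.7%.

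Within batch 1, 7 members were called, against 56.1% of all genes tested, 5 higher (29%) and 2 lower (27.1%), with AXL, DDR2 and FGFR1 not called. Within batch 2, 9 were called, against 56%, 6 higher (27.4%) and 3 lower (28.6%), with FGFR1 not called. In 8 members the libraries of the populations did not overlap in batch 1, and in 8 in batch 2, against 60.5% and 61.2% of all genes tested. In batch 1 the 2 overlapping members were DDR2 and FGFR1, and in batch 2 TYRO3 and FGFR1.

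The members were set beside their neighbours on the chromosome. DDR1 on chromosome 6 rose among genes that were mostly lower (neighbour median log2 fold change -0.18, 18 of 20 below 0). MERTK on chromosome 2 rose among genes with a median of -0.03. DDR2 on chromosome 1, at -0.35 over both batches, stood beside a median of -0.37. Within each batch it lay apart from its neighbours. DDR2 was at 0.10 in batch 1 and -0.79 in batch 2, against neighbour medians of -0.43 and -0.38. TYRO3 on chromosome 15 (0.27) and AXL on chromosome 19 (0.08) stood beside medians of 0.21 and 0.19, and MET on chromosome 7 (0.53) beside 0.21. Their part in the members' values was not tested.

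The called counts of the pathway lists that follow stand against 63.4% of all genes tested, 31.9% higher and 31.5% lower. Of 6 TAM ligands and sheddases other than GAS6, 5 were tested, with 4 higher and 1 lower (median log2 fold change 0.17, against 0.0055 over all genes tested). With GAS6, the tested ligands divide into 2 higher (PROS1 and LGALS3) and 2 lower (GAS6 and TUB). PROS1, which encodes protein S, rose from 10.5 ± 2.28 to 14.7 ± 2.78 CPM (SD, n = 6, log2 fold change 0.48 ± 0.06 SE, edgeR adjusted p = 1.6e-08), opposite to GAS6. LGALS3, a galectin known to bind MERTK, rose from 45.2 to 58.1 CPM and the protease ADAM10 from 86.1 to 96.5 CPM. TUB, a tubby protein, fell from 3.88 to 2.88 CPM.

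Of 12 genes around MET, 10 were tested, with 7 called, near the 63.4% of all genes, 3 higher and 4 lower, and a median log2 fold change of 0.019. MST1R, the RON receptor most related to MET, rose from 4.64 ± 0.818 to 7.35 ± 1.34 CPM (SD, n = 6, log2 fold change 0.66 ± 0.07 SE, edgeR adjusted p = 1.39e-09). Its ligand gene MST1, which has near-identical copies and so uncertain counts, fell from 4.06 to 1.44 CPM. SPINT2, an inhibitor of the proteases that activate HGF, rose from 271 to 362 CPM, while LRIG1, known to lower MET protein, fell from 36.0 to 20.8 CPM. The semaphorin receptor PLXNB1, a partner of MET, fell from 2.12 to 1.26 CPM.

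Besides FGF2, 2 further FGF ligands were lower. FGF5 fell from 156 ± 7.48 to 90.8 ± 2.69 CPM (SD, n = 6, log2 fold change -0.78 ± 0.03 SE, edgeR adjusted p = 8.97e-22), and FGF1 from 11.1 ± 3.29 to 5.43 ± 0.682 CPM (-1.01 ± 0.08 SE, adjusted p = 5.77e-13). Of the 15 FGF axis genes, 10 were tested, with 5 called against 63.4% of all genes, 2 higher and 3 lower, and a median of -0.10. FGF18, named after its values were seen, stood at 0.332 against 0.159 CPM (edgeR adjusted p = 0.0402). Its call was lost with DESeq2 (0.0611), limma-voom (0.0768), no batch term (0.085) and when any 1 of 9 libraries was left out (0.0502 to 0.186). FGFRL1, a receptor relative without a kinase domain, fell from 51.1 to 45.4 CPM. FGFR3, at 1.52 against 1.19 CPM, had a log2 fold change of 0.37 ± 0.15 SE (edgeR adjusted p = 0.0305), a call lost with DESeq2 (0.0508), without a batch term (0.0876), with summed libraries (0.073), and when fast batch 1 replicate 3, parental batch 1 replicate 2 or fast batch 2 replicate 3 was left out (0.0585 to 0.0905).

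**Figure D4:**
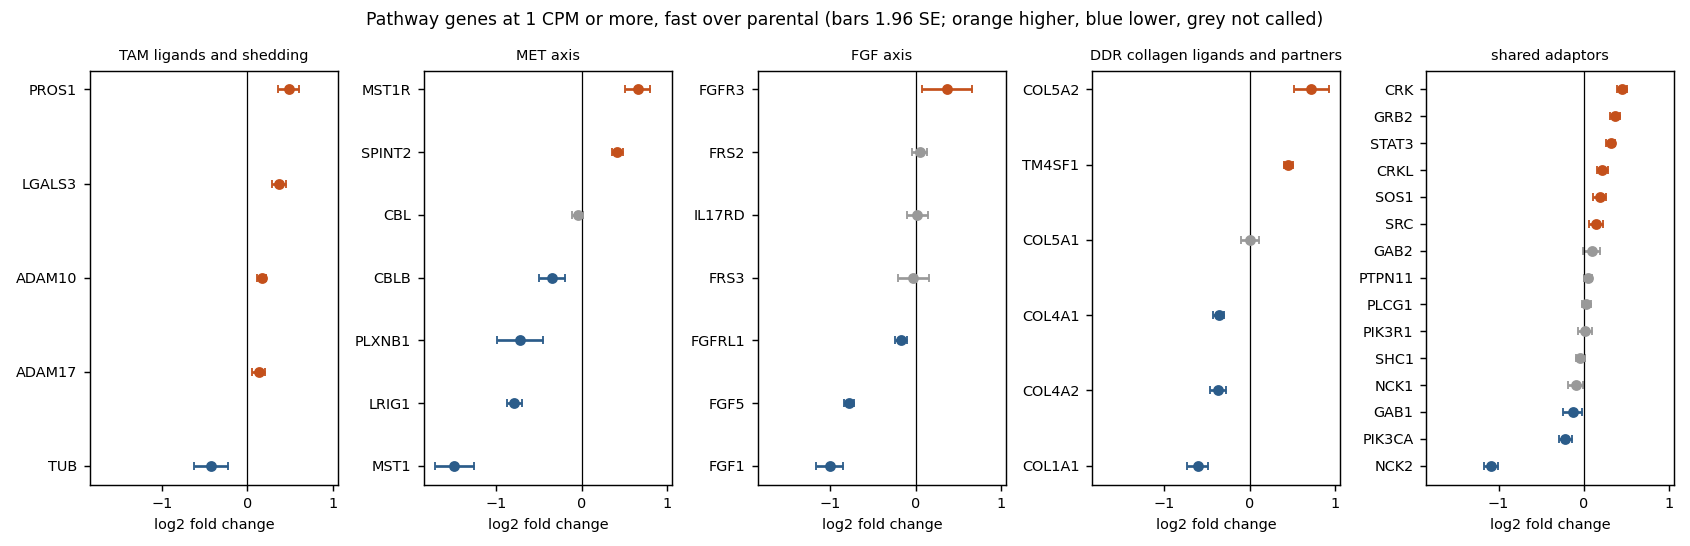
Log2 fold change of fast over parental cells for pathway genes with a mean of at least 1 CPM, over both batches, with bars for the 95% interval; orange marks genes called higher, blue called lower and grey not called. MST1, NCK2 and FGF1 lay farthest to the left, and COL5A2, MST1R and PROS1 farthest to the right.

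Of 10 collagen ligands and partners of the DDR receptors, 6 were tested, with 5 called against 63.4% of all genes, 2 higher and 3 lower, and a median of -0.18. The collagen chains COL4A2, COL4A1 and COL1A1 fell from 237 to 182, from 78.2 to 60.8 and from 14.2 to 9.32 CPM. COL5A2 rose from 2.40 to 3.97 CPM, and TM4SF1, a tetraspanin-like partner of DDR1, from 141 to 192 CPM. Of 15 adaptors and effectors shared by these receptors, all 15 were tested and 9 called, near the 63.4% of all genes, 6 higher and 3 lower, with a median of 0.047. CRK, GRB2 and STAT3 rose from 143 to 195, from 147 to 190 and from 163 to 202 CPM, while the SH2 adaptor NCK2 fell from 33.8 ± 1.18 to 15.9 ± 0.666 CPM (SD, n = 6, log2 fold change -1.09 ± 0.04 SE, edgeR adjusted p = 8.09e-22). PIK3CA, a catalytic subunit of PI3 kinase, fell from 35.1 to 30.2 CPM. GAB1, a docking protein of MET, was lower, at 10.4 against 11.4 CPM, with a log2 fold change of -0.13 ± 0.06 SE (edgeR adjusted p = 0.0375), a call lost with summed libraries (0.308), with no filter (0.0689), without a batch term (0.272) and without any 1 of 10 libraries (0.0526 to 0.159).

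The 2 genes most like each member over the 12 libraries, by Pearson correlation of log2 CPM among genes at 5 CPM or more, were TRAK1 and MSTO2P for FGF2 (each r = 0.99) and PLXNA2 and AKAP2 for FGFR4 (each r = 0.99). They were RABGAP1 and USP14 for MERTK (each r = 0.99), and RAB8B (r = 0.996) and SDE2 (r = 0.99) for MET. Those of DDR1 were ESYT2 and ATP2B4 (each r = 0.99), and those of GAS6 were RIPK4 and CD59 (each r = 0.98). For AXL they were STYX (r = 0.97) and NMI (r = 0.96), and for TYRO3 EEF1A1P6 and GNPDA1 (each r = 0.95). The values were lowest for DDR2, with BCL6 (r = 0.88) and TNPO2 (r = 0.86), and for FGFR1, with CREBBP (r = 0.86) and KPNA5 (r = 0.82). These correlations describe libraries that share 2 populations and 2 batches.

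Total counts ran from 53267145 to 75944907 per library. The line's marker VIM averaged 6912 CPM in fast against 5050 CPM in parental cells, and CDH1 had at most 4 counts in a library. ESR1 stood at 0.139 CPM in both, PGR at 2.05 and 0.477 CPM, and ERBB2 at 59.0 and 62.4 CPM. Summed over 7 leukocyte markers the level was 1.12 to 1.56 CPM in fast and 1.41 to 2.53 CPM in parental libraries, with PTPRC at 12 counts over all 12 libraries, and over 6 fibroblast markers it was 0.892 to 1.10 and 0.624 to 1.4 CPM, with DCN and LUM at 0. Over 5 endothelial markers it was 9.44 to 12.4 and 8.19 to 10.7 CPM, mostly from KDR, a VEGF receptor (10.8 and 8.60 CPM), while CDH5 had 36 counts in total. Among the line's markers VIM and PGR were called higher and ERBB2 lower, and among those of other cell types KDR higher and CSF1R and VWF lower. Their part in the members' values was not tested. In bulk RNA, fewer cells that carry a transcript and less of it in each cell cannot be told apart.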

How the data were processed

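The authors deposited 1 table of raw counts of reads per gene, not normalized, for 60234 genes in 12 libraries. The submitters' processing notes name Trimmomatic 0.32, STAR 2.3.0e and featureCounts 1.4.4, and the builds hg19 and GRCh37. Strand use and reads with several matches: not given in the sources used here. Total counts ran from 53267145 to 75944907 per library, so that 1 CPM is about 53.3 counts in the shallowest. Replicate libraries all differed beyond counting noise (chi-square over its degrees of freedom 3.41 to 8.78), so none was taken as a copy of another and each counted as 1. This ratio cannot tell separate cultures from technical replicates of 1 culture.

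edgeR 4.0.16 (R 4.3.3) was run on the whole table with TMM normalization, its default filter (minimum count 10, minimum total 15) and a robust quasi-likelihood fit, leaving 22668 genes. Batch was an additive term. Within-batch effects and their difference came from a fit with a separate mean for each population in each batch. P-values are Benjamini-Hochberg adjusted over all genes tested, and the SE is the log2 fold change over the root of the test statistic. Alternatives used DESeq2 1.42.0, limma 3.58.1, other filters and size factors, sums of libraries, a replicate block, and leaving out each library.

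Lengths (union of exons), overlaps and gene order come from GENCODE 29 on GRCh38, matched by gene ID, and promoters from RefSeq. The members and lists were chosen with earlier results of these data known. Named are all members, up to 3 called genes with the largest change per direction and list at 1 CPM or more, PROS1, HGF, MST1R, FGFR2, FGFR3, FGFRL1 and FGF1, and the 2 genes most alike a member.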

Additional observations from a re-analysis of the deposited data

Results flagged for a closer look

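The effect of fast against parental cells differed between batches in 1 of the 10 members and in 6 of the 46 pathway genes tested (edgeR's test of the difference, batch 2 minus batch 1, adjusted p under 0.05), against 5.4% of all genes tested. For the collagen receptor DDR2 the difference in log2 fold change was -0.89 (adjusted p = 0.0121), with parental libraries higher in batch 2 and fast libraries lower. For FGF1 it was -0.47 (adjusted p = 0.023), with a fall in both batches. COL1A1 differed by 0.36 (adjusted p = 0.0362) and COL4A2 by 0.30 (adjusted p = 1.43e-05), each falling in both batches and less in batch 2. CRK differed by -0.15 (adjusted p = 0.0498), rising in both. The collagen chain COL5A1 differed by 0.36 (adjusted p = 7.23e-06), with -0.18 in batch 1 and 0.18 in batch 2. IL17RD, a feedback inhibitor of FGF signalling, differed by 0.40 (adjusted p = 0.00781), with -0.18 in batch 1 and 0.22 in batch 2. COL5A1 and IL17RD were named after their values were seen. The call was lost for FGF1 without any 1 of 7 libraries, for COL1A1 without any 1 of 6 and for CRK without any 1 of 11 (adjusted p up to 0.162, 0.100 and 0.412). For CRK it was also lost with a filter of a mean of 1 CPM (0.115). It held in all 12 such fits for COL4A2, COL5A1 and IL17RD.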

How the results depend on the processing

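Over both batches, MERTK, TYRO3, GAS6, MET, DDR1, FGFR4 and FGF2 kept their direction and call under all alternatives run. These were DESeq2, limma-voom, RLE size factors, no filter, a filter of a mean of 1 CPM, sums, no batch term, the replicate block and leaving out each library. FGFR1 turned to -0.0039 with the 1 CPM filter (adjusted p = 0.891). The number of members whose effect differed between batches was 1, became 3 with the 1 CPM filter, which added AXL (0.12, adjusted p = 0.0336) and GAS6 (0.18, adjusted p = 0.00895), and ran from 1 to 3 when each library was left out. In those 12 fits the difference was called for GAS6 in 5, for AXL in 3 and for MET in 1. Without parental batch 2 replicate 3, AXL and GAS6 were called and DDR2 was not. The cause of these changes was not tested. When each library was left out, values that were not called changed sign in DDR2 in batch 1 (-0.032 to 0.33) and FGFR1 in batch 2 (-0.028 to 0.036). The difference between batches did so for MERTK (-0.13 to 0.038), DDR1 (-0.12 to 0.036) and FGFR1 (-0.10 to 0.0017). FGFR1 was called in batch 1 without fast replicate 1 (adjusted p = 0.0345).

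Replicate numbers were shared across populations, but the same-numbered libraries had correlations of their deviations from -0.18 to 0.13, 2 of 6 correlated best with their own number, and the submitters' short labels number some libraries differently. With the replicate block 6 members were higher and 2 lower. DDR2 (adjusted p = 0.0837), GAB1 (0.0541) and FGF18 (0.131) were no longer called. No other call over both batches changed among the members, the named pathway genes that were called, NUDT6, GAS6-AS1 and LETM2. The cell type markers, the genes named as most alike and the overlapping partners AC011510.1 and AC087623.1 were not refitted. The length chosen for the shares (longest transcript) was an alternative added after seeing the data. Members with few counts, DDR2 and FGFR4, were measured least precisely, and the labels do not say whether the batches are separate cultures, so the spread between cultures is unknown.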
